A study of Mus musculus with 10 samples.

Results

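The genes described here are the receptors of retinoic acid (RA), namely Rara, Rarb, Rarg, Rxra, Rxrb and Rxrg, together with the RA enzymes Aldh1a2 and Cyp26b1 and the binding proteins Crabp1 and Crabp2. They were picked by symbol and make up 10 of the 21774 protein-coding genes that RefSeq annotates on GRCm38.p6. All 10 were found in that annotation. The question was whether their transcription start sites (TSSs) were named in cluster-1 (Cl-1), the cluster of TSSs enriched for ARID2, at either of the ages studied.

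The data were CUT&RUN profiles of spermatogenic cells from synchronized testes of CD1 mice, an outbred strain. Every mouse, whatever the library, received WIN 18,446, an inhibitor of RA synthesis, at 100 ug/g from P1 to P10, and then 10 ul of RA at 10 ug/ul on P11. Cells were collected at P28, 17 days after RA, and at P28.5, 17.5 days after RA, when late prophase-I and metaphase-I spermatocytes are enriched. ARID2, a subunit found in the PBAF form of the SWI/SNF remodeler, was profiled in 2 libraries per age. BRG1, the ATPase of the complex, was profiled in 2 more, made with different antibodies, and 1 control library per age had no primary antibody. All mice had thus been given RA, and no untreated or ARID2-deficient sample was among the libraries, so the lists compare ages and genes, not the presence and absence of RA. CUT&RUN sequences the fragments that an antibody-tethered nuclease releases from chromatin. The cells are a mixed preparation, and a listed TSS cannot be assigned to one cell type in it.

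The deposited lists hold 11553 rows with 7144 positions at P28 and 8514 rows with 5193 positions at P28.5. Each row gives a position and a symbol, with no strand, signal or count. Because the authors averaged the replicates before clustering, there is 1 list per age, the depth behind a call is unknown from the lists, and neither a spread between replicates nor a test between ages could be computed. A gene without a row was not in Cl-1, which does not show that ARID2 was absent from it. Of all protein-coding genes, 3661 (16.8%) were named at P28 and 2528 (11.6%) at P28.5. Strand mattered to these shares. Of plus-strand genes 26.0% were named at P28 and 20.4% at P28.5, against 7.61% and 2.86% of minus-strand genes. The 5′ ends of minus-strand genes were seldom the listed positions. At P28, 830 minus-strand genes were named, but 4 of 29257 minus-strand starts equalled a listed position. A row naming a minus-strand gene thus seldom marked its annotated 5′ end, and does not show occupancy there.

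RA is made from retinol by successive oxidation steps, the last of them carried out by retinaldehyde dehydrogenases such as ALDH1A2. In the nucleus it binds an RAR, which sits on DNA as a heterodimer with an RXR, and the pair exchanges corepressors for coactivators. CRABP proteins carry RA within the cell, and CYP26 enzymes degrade it. In the testis, RA drives the differentiation of spermatogonia and the entry into meiosis through genes such as Stra8, and its level is known to vary along the seminiferous cycle.

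Upstream sequences of the starts on which the results turn are shown first, because they are where a listed and an unlisted promoter can be compared letter by letter. They were read 5′ to 3′ from RefSeq GRCm38.p6, the assembly behind mm10, on the strand given. Capitals mark a GC box (GGGCGG on either strand) in the Rxrb sequences, and in the Rarb sequence a DR5 element, a direct repeat of the receptor core hexamer with a spacer of 5 bases. The Aldh1a2 sequence holds neither and has no capitals. The first sequence is the whole interval between the starts of Slc39a7 and Rxrb, and the second is the part of the first Rxrb intron just before the second Rxrb start.
Rxrb first start, upstream, chr17:34031691-34031811, plus strand: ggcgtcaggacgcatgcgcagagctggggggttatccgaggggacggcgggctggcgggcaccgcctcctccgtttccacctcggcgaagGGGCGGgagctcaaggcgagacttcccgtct
Rxrb second start, upstream, chr17:34032224-34032349, plus strand: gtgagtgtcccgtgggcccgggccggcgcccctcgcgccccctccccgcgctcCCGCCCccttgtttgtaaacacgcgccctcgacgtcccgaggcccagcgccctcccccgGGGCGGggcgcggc
Aldh1a2, upstream, chr9:71215539-71215788, plus strand: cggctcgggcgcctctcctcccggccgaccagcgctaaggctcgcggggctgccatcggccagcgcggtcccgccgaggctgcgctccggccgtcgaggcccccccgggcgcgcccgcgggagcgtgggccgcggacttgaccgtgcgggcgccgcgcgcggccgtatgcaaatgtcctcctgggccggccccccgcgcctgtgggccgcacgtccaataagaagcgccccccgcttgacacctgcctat
Rarb beta2 start, upstream, chr14:16575477-16575576, minus strand: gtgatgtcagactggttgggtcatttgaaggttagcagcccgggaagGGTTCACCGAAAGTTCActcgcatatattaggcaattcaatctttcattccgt
The listed starts had GC-rich upstream sequence, 71.1% GC with 14 CpGs in 121 bases at the first Rxrb start, 81.0% with 19 CpGs in 126 bases at the second, and 77.6% with 40 CpGs in 250 bases at Aldh1a2. The 100 bases shown for Rarb had 46.0% GC and 4 CpGs, in a shorter window and on the strand that is seldom listed, so they do not stand for unlisted starts in general. The unlisted Rxra start at 27677201 had 78.3% GC within 500 bp to each side.

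Rxrb and Aldh1a2 were the members named in Cl-1, and both were named at both ages. Rara, Rarb, Rarg, Rxra, Rxrg, Cyp26b1, Crabp1 and Crabp2 had no row at either age and no listed position anywhere within the gene. The count was therefore 2 of 10 members (20.0%) at P28, against 16.8% of all protein-coding genes, and 2 of 10 at P28.5, against 11.6%. With 10 genes these shares lie near the background and do not set the members apart from it. By strand, 2 of 7 plus-strand members were named, beside backgrounds of 26.0% and 20.4%, and 0 of 3 minus-strand members (Rarb, Rarg and Cyp26b1), beside 7.61% and 2.86%. Absence of those 3 says little, since few minus-strand genes were named at all.

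**Figure D1:**
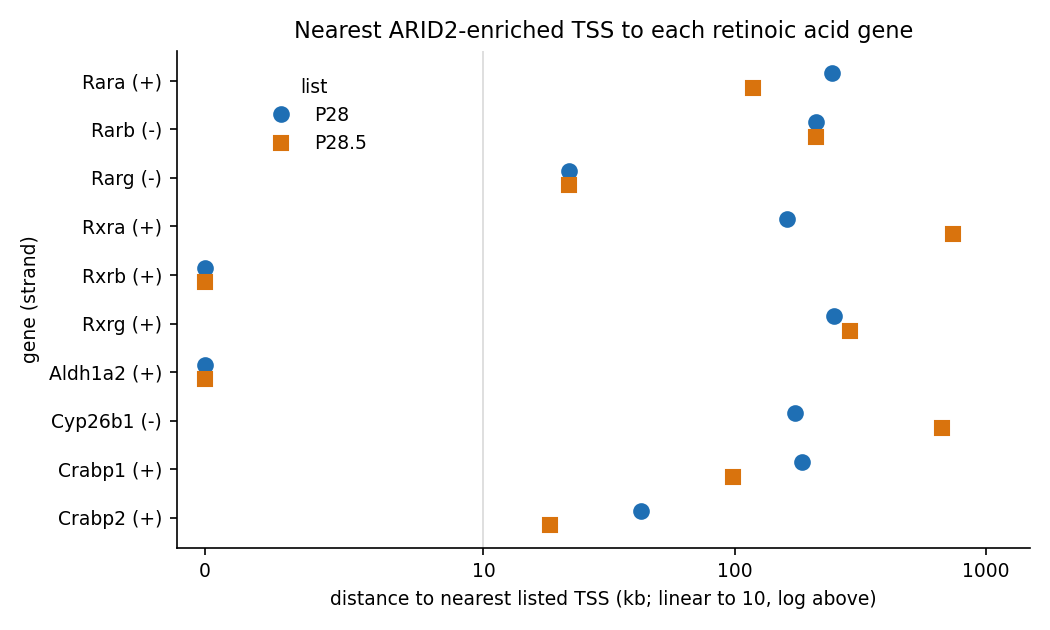
Distance in kb, on an axis that is linear to 10 kb and logarithmic above it, from any annotated 5′ end of each member to the nearest listed position at P28 and P28.5. Rxrb and Aldh1a2 sit at 0 at both ages, while the other 8 members lie between 18.4 and 742.3 kb away.

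Among the RXRs, the shared partners of RARs and of many other nuclear receptors, Rxrb (GeneID 20182, chr17:34031812-34038403, plus strand) was named by 4 rows at P28 and by 2 at P28.5. The 4 rows at P28 marked 2 positions, 34031812 and 34032350, each of them listed by 2 rows. Both positions equalled annotated 5′ ends to the base. The first is the start of transcript variants 1 and 2, and the second, 538 bp downstream, is the start of variants 3 and 4. At P28.5 the rows marked position 34031812 alone. The second start lies in the first intron of variants 1 and 2, 127 bp after their first exon ends at 34032223. By the annotation, variants 1 and 2 encode proteins of 524 and 520 residues, and variants 3 and 4 encode 414 and 410 residues. The start that was no longer listed at P28.5 was thus the one of the shorter forms. The lists record membership of a TSS in a cluster and not the use of a start.

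A smaller number of positions at P28.5, as at Rxrb, was found in a minority of genes. Of 1847 protein-coding genes named at both ages, 966 had at least 2 positions at P28. Of these, 739 had as many at P28.5, 158 (16.4%) had fewer and 69 had more. In 146 of them (15.1%), as in Rxrb, the P28.5 positions were a part of those at P28.

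**Figure D2:**
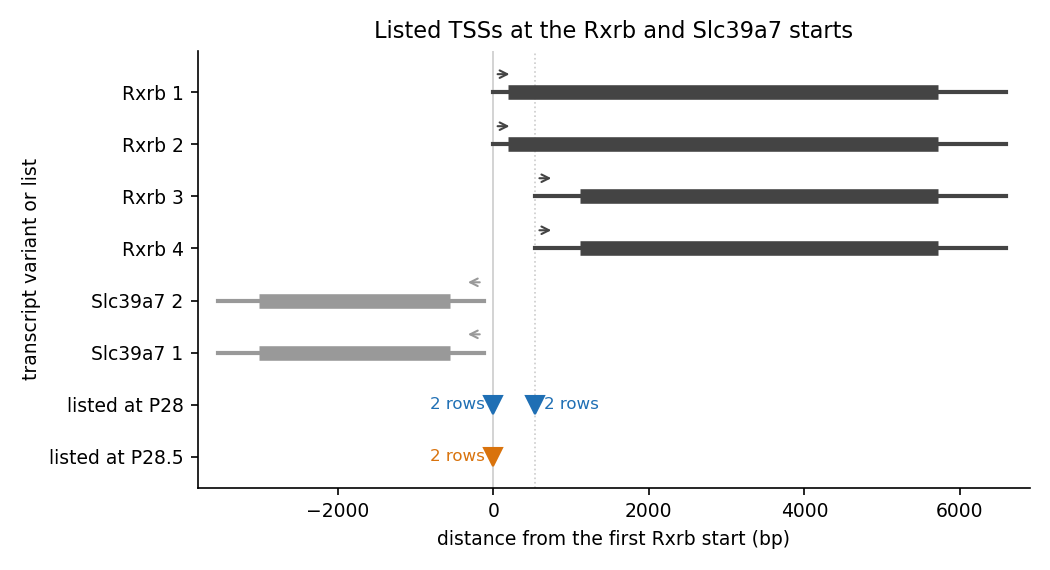
The Rxrb and Slc39a7 starts, with the horizontal axis in bp from the first Rxrb start; thin bars span each of the 4 Rxrb and 2 Slc39a7 transcripts, thick bars run from start to stop codon with introns included, and symbols are the listed positions at each age. At P28 both Rxrb starts, 538 bp apart, are marked, and at P28.5 the first alone.

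Rxrb shares its promoter region with Slc39a7 (GeneID 14977, chr17:34028266-34031690, minus strand), which encodes a zinc transporter. Their starts point away from each other and are 122 bp apart, with the 121 bases printed above between them. Slc39a7 was named at neither age, and the nearest listed position to its start at each age was the Rxrb start, 122 bp away. Since the lists seldom name minus-strand genes by their starts, a call at this promoter cannot be told apart between Rxrb and Slc39a7. Farther out, the next listed positions at both ages were 75.7 kb upstream, named Vps52, and 90.9 kb downstream, named Brd2. Within 100 kb of an Rxrb start there were 10 listed positions at P28 and 7 at P28.5, and the difference was made up by the second Rxrb start and 2 positions named Wdr46.

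Rxra and Rxrg were not named. Rxra (GeneID 20181, chr2:27676445-27763319, plus strand) has 5 annotated starts, and the nearest listed position was 161.1 kb away at P28, named Wdr5, and 742.3 kb away at P28.5, named Stkld1. Rxrg (GeneID 20183, chr1:167598362-167639623, plus strand) has 3, with the nearest listed position 248.4 kb away at P28 (Aldh9a1) and 289.7 kb away at P28.5 (Tmco1). Rxrb was the one RXR gene with a listed start at these ages.

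None of the 3 RARs, the receptors that bind RA itself, was named. Rara (GeneID 19401, chr11:98927800-98974942, plus strand) has the most annotated starts of the members, 11, and none was listed. Its nearest listed position was 245.2 kb away at P28 (Psmd3) and 118.0 kb away at P28.5 (Casc3). Rarb (GeneID 218772, chr14:16430839-17082331, minus strand) has 2 starts, one of them the beta2 start, a textbook RA target through the DR5 element printed above. Its nearest listed position, at Top2b, was 210.3 kb away at both ages. Rarg (GeneID 19411, chr15:102234938-102257522, minus strand) has 3 starts and was the RAR nearest to a listed position, 21.9 kb at both ages, named Mfsd5. Within 100 kb of one of its starts there were 8 listed positions at P28 and 1 at P28.5. In all, 0 of 16 RAR starts were listed at either age, 11 of them those of Rara and the other 5 on the minus strand. The 10 RXR starts are on the plus strand, with 2 in the P28 list and 1 in the P28.5 list. Over all protein-coding genes, 9.80% of 29205 plus-strand starts equalled a listed position at P28 and 8.58% at P28.5, and 0.0137% of 29257 minus-strand starts did at each age. With so few starts these counts do not set the RARs apart from the RXRs.

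Of the enzymes at opposite ends of RA turnover, Aldh1a2 was named and Cyp26b1 was not. They lie on opposite strands, and 7.61% of minus-strand genes were named at P28 and 2.86% at P28.5. A difference between the enzymes therefore cannot be told apart from one of strand. Aldh1a2 (GeneID 19378, chr9:71215789-71296243, plus strand), which makes RA from retinaldehyde, has 1 annotated transcript and was named by 1 row at each age. The listed position, 71215789, equalled its annotated 5′ end. Within 100 kb of it, the other listed position was 47.0 kb upstream, named Gm32511, at P28, and there was none at P28.5. Cyp26b1 (GeneID 232174, chr6:84571414-84593908, minus strand), which degrades RA, has 5 annotated starts and no row. Its nearest listed position was 174.0 kb away at P28 (Gm10445) and 672.5 kb away at P28.5 (Zfp638).

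Neither binding protein was named. Crabp1 (GeneID 12903, chr9:54764748-54773110, plus strand) was 186.1 kb from a listed position at P28 (Psma4) and 98.9 kb at P28.5 (Ireb2). Crabp2 (GeneID 12904, chr3:87948693-87953372, plus strand) was nearer, 42.4 kb at P28 (Hdgf) and 18.4 kb at P28.5 (Isg20l2). Over the 8 unlisted members the median distance to a listed position was 180.0 kb at P28 and 164.1 kb at P28.5. For all unlisted protein-coding genes it was 129.7 kb at P28 (n = 18113) and 211.0 kb at P28.5 (n = 19246). Of these genes 4.14% at P28 and 3.79% at P28.5 had a listed position, under another gene's name, within 2000 bp of a start, and no member did.

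Both listed members start close to a transcript that runs the other way. The nearest opposite-strand 5′ end upstream of a start was 122 bp away for Rxrb (Slc39a7) and 403 bp away for Aldh1a2, where it belongs to Gm3458. For the other 8 members it was between 2250 bp (Rara) and 428385 bp (Cyp26b1) away. These member distances count any annotated start, and from its outermost start Rara was 117711 bp away. For Rxrb and Aldh1a2 the outermost start gives the same values. Over all plus-strand genes the outermost start alone was used. By it, 1496 had a minus-strand 5′ end within 1000 bp upstream, and 47.0% of these were named at P28 and 45.5% at P28.5. Of the 9375 without one, 22.7% and 16.4% were named.

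CpG content was described, in a window reaching 500 bp to each side of a start, as observed over expected CpG. Of the 34 annotated starts of the members, the 3 that were listed at either age had ratios from 0.86 to 0.93, namely 0.92 and 0.86 at Rxrb and 0.93 at Aldh1a2. The 31 starts not listed ranged from 0.07 to 0.98. The upper end of that range belonged to Rxra, whose start at 27677201 had a ratio of 0.98 and 78.3% GC and yet was not listed. By the most CpG-rich start of each gene, a measure chosen after values had been seen, Rxra, Rxrb and Aldh1a2 fell in the highest of 5 quintiles of all genes. In that quintile 46.4% of plus-strand genes were named at P28 and 47.2% at P28.5. Rarb (0.78), on the minus strand, was in the quintile below it, in which 10.9% of minus-strand genes were named at P28 and 5.34% at P28.5. Rara (0.70), Rarg (0.63), Crabp1 (0.62), Cyp26b1 (0.60), Crabp2 (0.50) and Rxrg (0.49) were in the middle quintile, in which 27.1% of plus-strand genes were named at P28 and 16.9% at P28.5. In the middle quintile 7.36% and 1.93% of minus-strand genes were named. Placement depended on the measure. By quintiles of the outermost start of each gene, Rxrb and Aldh1a2 alone were in the highest, quintile 5. Rxra was then in quintile 3, in which 21.4% of plus-strand genes were named at P28 and 12.1% at P28.5. Cyp26b1 was in quintile 2 and Rarb in quintile 1.

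**Figure D3:**
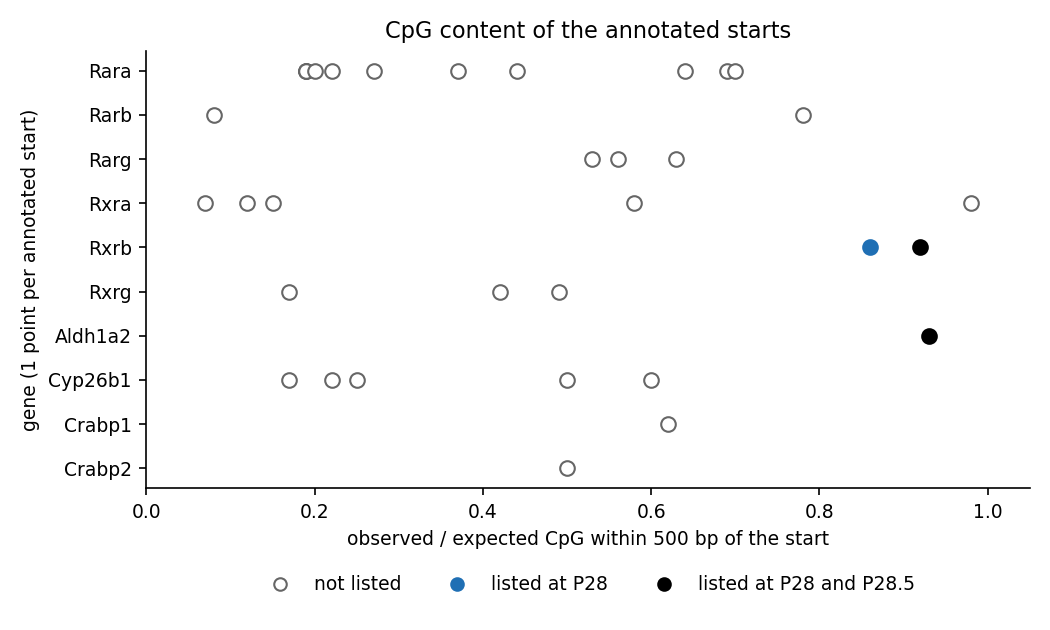
Observed over expected CpG, in a window reaching 500 bp to each side, for each annotated start of the 10 members, with listed starts marked apart from unlisted ones. The 3 listed starts lie between 0.86 and 0.93, and 1 unlisted Rxra start lies above them at 0.98.

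Receptor motifs were searched on both strands of RefSeq promoters, 250 bases before to 50 after a start. Of the members, 9 were matched, with 16 promoters, and Crabp2 was not. A core hexamer, which is AGGTCA or its variants with GGGTCA, with AGTTCA or with GGTTCA, was in 7 of the 16 (43.8%), against 43.7% of 32851 promoters. No core hexamer was in the promoters of the listed starts of Rxrb or Aldh1a2. A DR5 element, which itself contains a pair of core hexamers, was in 0.0974% of all promoters and, among the members, at the Rarb beta2 start alone, where its first base was at position -53 from the start. Repeats with spacers of 1 or 2 bases, found in 0.222% and 0.268% of promoters, were in none of the 16. GC boxes were in 9 of the 16 (56.2%), against 35.7% of all. The Rara promoters at 98937696 and 98937718 overlap and hold the same GC boxes, so these 9 are not all separate, and no difference was tested. The listed starts differed in GC boxes, since both Rxrb promoters held them and the Aldh1a2 promoter held none.

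The other genes of RA signalling were taken from fixed lists of 57 genes. Of these, 9 (15.8%, 95% Wilson interval 8.54 to 27.4) were named at P28 and 6 (10.5%, 4.91 to 21.1) at P28.5, beside backgrounds of 16.8% and 11.6%. Wilson intervals here cover counting error over genes only. Of 13 genes of RA synthesis and retinol oxidation other than Aldh1a2, 0 were named at either age, which allows a share of up to 23.1%. Of 12 genes of retinoid storage and transport, Stra6l was named at P28, and 0 of 12 at P28.5, which allows up to 25.0%. Cyp26c1, one of the other 2 CYP26 genes, was named at P28 and neither at P28.5.

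Of the coregulators of the receptors, 3 of 18 (16.7%, 5.84 to 39.2) were named at P28 and 5 of 18 (27.8%, 12.5 to 50.9) at P28.5. The shares of all genes were 16.8% and 11.6%. The P28 interval included the background, and the P28.5 interval lay just above it. The same 18 genes were counted at both ages, 3 named at both and 2 at P28.5 alone, and no difference was tested. Hdac3, a histone deacetylase, Gps2, a subunit of its corepressor complex, and Trim24, a coregulator that binds nuclear receptors, were named at both ages. Tbl1xr1, another corepressor subunit, was named by 5 rows and the coactivator Ncoa3 by 2 rows, both at P28.5 alone. Of 12 RA target genes, 4 (33.3%, 13.8 to 60.9) were named at P28 and 1 (8.33%, 1.49 to 35.4) at P28.5, and both intervals include the background. Rec8, a meiotic cohesin subunit, was named by 2 rows at P28 and by none at P28.5, as were Dmrta2, with 3 rows, and Rarres1, whose listed position was 7.1 kb from its own 5′ ends. Egr1, an immediate early transcription factor, was named at both ages. Stra8, Kit and Meiosin (annotated as Bhmg1), which act in the differentiation and meiotic entry of germ cells, were not named at either age.

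Nuclear receptors other than the RARs and RXRs include the partners of RXR and receptors that act without it. Of 42 such genes, 11 (26.2%, 15.3 to 41.1) were named at P28 and 3 (7.14%, 2.46 to 19.0) at P28.5, beside 16.8% and 11.6% of all protein-coding genes. Of the 42, 9 appeared in the P28 list alone, 1 in the P28.5 list alone and 2 in both. Over all protein-coding genes these numbers were 1814, 681 and 1847. Of the 42, 22 are on the plus strand, and 10 of the 22 were named at P28 and 2 at P28.5. Of all plus-strand genes 26.0% and 20.4% were named, and no difference was tested. Among 13 partners of RXR, 4 (30.8%, 12.7 to 57.6) were named at P28 and 1 (7.69%, 1.37 to 33.3) at P28.5. Ppara, a receptor for fatty acids, was named at both ages, by 7 rows at 6 positions at P28 and by 3 rows at 2 positions at P28.5. Pparg, Nr4a1 and Thrb were named at P28 alone, and the listed position of Thrb was 141.3 kb from its own 5′ ends. Among the 29 other receptors, 7 (24.1%, 12.2 to 42.1) were named at P28 and 2 (6.90%, 1.91 to 22.0) at P28.5. These 4 intervals include the background. Nr2c2, an orphan receptor of testis, was named at both ages and Esrra at P28.5 alone, while Nr0b2, Rora, Nr2e1, Nr4a3, Esrrb and Esrrg were named at P28 alone. The positions of Esrrb and Esrrg lay 52.0 and 16.5 kb from their own 5′ ends.

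**Figure D4:**
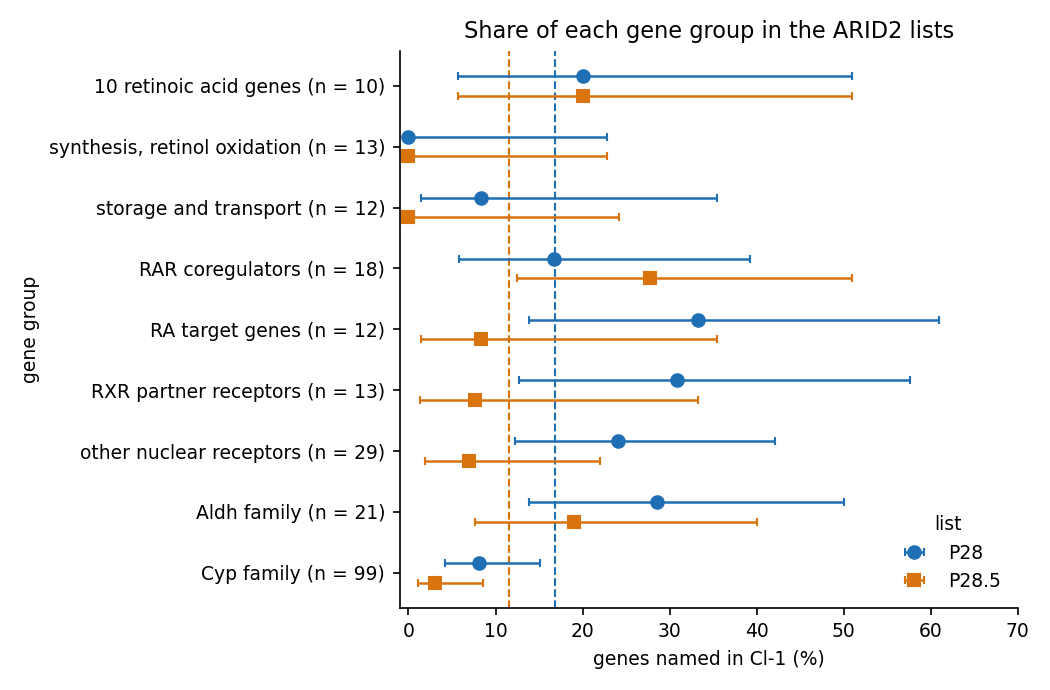
Percent of genes named at P28 and P28.5 in 9 gene groups, the number of genes in parentheses, with 95% Wilson intervals that cover counting error over genes only; the dashed lines give the shares of all protein-coding genes, 16.8% and 11.6%. The 10 members are at 20.0% at both ages, while partners of RXR are at 30.8% at P28 and 7.69% at P28.5 and the other nuclear receptors at 24.1% and 6.90%.

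The enzyme families of Aldh1a2 and Cyp26b1 were counted beside the background of 16.8% and 11.6%. Of 21 aldehyde dehydrogenase genes, Aldh1a2 included, 6 (28.6%, 13.8 to 50) were named at P28 and 4 (19.0%, 7.67 to 40.0) at P28.5. Aldh4a1 and Aldh6a1, enzymes of mitochondrial amino acid breakdown, were named at both ages together with Aldh1a2. Aldh9a1, Aldh1b1 and Aldh3a1 were named at P28 alone and Aldh16a1 at P28.5 alone. Of 99 cytochrome P450 genes, 8 (8.08%, 4.15 to 15.1) were named at P28 and 3 (3.03%, 1.04 to 8.53) at P28.5. Both intervals of the cytochrome P450 genes lay below the shares of all genes, and those of the aldehyde dehydrogenase genes included them. Of the 99 cytochrome P450 genes 45 are on the plus strand, of which 2 were named at P28 and 1 at P28.5. Of the 21 aldehyde dehydrogenase genes 10 are, of which 5 and 2 were named. Beside these stand 26.0% and 20.4% of all plus-strand genes. Whether strand bears on either family's share was not tested. The intervals of the families overlap, and no difference between them or from the background was tested. Of the 8 cytochrome P450 calls at P28, 3 lay within 500 bp of an own 5′ end, those of Cyp2u1, Cyp46a1 and Cyp26c1.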

How the data were processed

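The authors trimmed the reads with TrimGalore, aligned them to mm10 with Bowtie2, removed duplicates and blocklisted regions, made DeepTools coverage scaled by csaw factors, took the log2 ratio to the no-antibody library and averaged the replicates. They clustered RefSeq TSSs by k-means on that averaged ARID2 signal. The RefSeq release is not given in the sources used here. The deposited lists hold the positions and symbols of Cl-1, not counts or signal. The BRG1 libraries were not analysed here.

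Positions were compared with the 5′ ends of 119253 transcripts in the RefSeq annotation of GRCm38.p6. Of the listed symbols, 4085 of 4095 at P28 and 2702 of 2707 at P28.5 matched a gene (99.8% each). A gene was called named where a row carried its symbol. The text describes all 10 members, the genes of the fixed lists with a row, and neighbours nearest to a member. The rule for members used symbols alone, but members and lists were chosen with earlier results of these data known. No test was made, as each age has 1 list. For shares, 95% Wilson intervals are given, with a limit of 3 counts where none was named. The steps for distances, direct repeats and CpG ratios were tested on simulated data, and the counts of named genes were not. Alternatives were other distances, an own-symbol position, plus-strand genes and all annotated genes. The software was Python 3.11.15 with numpy 2.4.6, pandas 2.3.3, matplotlib 3.10.9 and scipy 1.17.1.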

Additional observations from a re-analysis of the deposited data

How the results depend on the processing

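The count of members in Cl-1 was 2 at each age under every alternative run, out of 7 where plus-strand genes alone were used. None of these settings could have changed it. Both named members are on the plus strand with their own row at a start, and the other 8 lay at least 18.4 kb from a listed position. Counts of the other RA pathway genes lay between 7 and 12 for P28 and between 5 and 8 for P28.5, and those of the other nuclear receptors between 8 and 10 and between 2 and 4, all within 1.5 times the values reported. The share of all genes moved more. At P28 it was 16.2% when any position within 500 bp of a start counted, 18.6% within 5000 bp, 13.2% by a row of the own symbol within 500 bp, 26.0% over plus-strand genes and 10.6% over all annotated genes. At P28.5 it was 14.3% within 500 bp, 14.8% within 2000 bp, 15.4% within 5000 bp, 20.4% over plus-strand genes and 6.99% over all annotated genes. No paired analysis was possible because each list was made from averaged replicates, and no replicate could be left out for the same reason. Without signal values, nothing can be said of how near an unlisted start was to the cluster.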

Other observations

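Cell type markers were counted in lists of 8 genes each. At P28, 0 of 8 spermatogonial, 1 of 8 spermatocyte, 3 of 8 spermatid, 1 of 8 Sertoli and 0 of 8 Leydig or peritubular markers were named, and at P28.5 the counts were 0, 3, 0, 0 and 0. Of all protein-coding genes 16.8% were named at P28 and 11.6% at P28.5. At P28 the Wilson interval of each list included that share. At P28.5 the interval of the spermatocyte markers (37.5%, 13.7 to 69.4) lay above it, and those of the other lists included it. With 8 genes a list, no difference was tested. A count of 0 of 8 allows a share of up to 37.5%. Sycp3, a protein of the synaptonemal complex, was named at both ages, and Spo11, which makes meiotic DNA breaks, and Hormad1 were named at P28.5 alone. None of the 3 spermatid markers was named within 500 bp of its own 5′ end. All 3 are on the minus strand, whose 5′ ends were seldom the listed positions. The position of the Sertoli marker Cldn11, on the plus strand, was 52.9 kb from its own 5′ ends. These lists record positions placed in a cluster and not expression, and for minus-strand genes the position was seldom the annotated 5′ end.

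Some genes of the retinoid lists had no row of their own but a listed position of a neighbour close by. Rlbp1, a retinaldehyde-binding protein, was 62 bp from a position named Fanci at both ages, and Prmt1, a coregulator, was 480 bp from one named Gm15545 at both ages. The oxysterol receptor gene Nr1h3 was 83 bp from a position named Acp2 at P28.5. Lrat, which makes retinyl esters, was 503 bp from one named Rbm46os at P28, and Nr3c2 and Bhmg1 were 1366 and 1328 bp from positions named Gm10649 and Fbxo46 at P28.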
